A study of Mus musculus with 2 samples.

Results

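Mir126a, Mir221 and Mir222 are 3 hairpin genes whose mature products, miR-126 and the pair miR-221 and miR-222, are known from blood vessel endothelium. They were taken from the count tables by Ensembl identifier and are 3 of 1973 microRNA genes. The tables hold small RNA reads from the whole forebrains of 2 newborn mice, pup 3 and pup 1, of strain B6NCrl at postnatal day 0. Both pups belong to the same group, with no treatment listed and sex not collected, and each forebrain gave a single library. The labels list the same donor record for both pups. With no second condition, the design gives the level of each gene, its spread between pups and its relation to its neighbours. All 3 genes passed the minimum of 20 reads over both pups that was set for testing, and all 3 were detected, with 10 or more reads in each pup.

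A microRNA is cut from a hairpin transcript and guides silencing complexes to messenger RNAs that pair with its seed, bases 2 to 8. miR-126 is made from an intron of Egfl7, a gene for a secreted protein of endothelial cells, and in mice and zebrafish it keeps vessels intact by relieving inhibition of growth factor signalling. It is also known from blood stem cells and megakaryocytes. miR-221 and miR-222 come from 1 cluster on the X chromosome. In human endothelial cells they restrain growth through the receptor KIT, while in human tumour cells they promote growth by repressing the cell cycle inhibitor CDKN1B.

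The 3′ arm sequences show what separates miR-126 from the pair and what joins the pair. They are from RefSeq (GRCm38.p6), which matched all 3 genes, are written 5′ to 3′, and have the seed in capitals.
miR-126a-3p: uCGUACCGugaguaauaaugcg
miR-221-3p: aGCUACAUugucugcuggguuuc
miR-222-3p: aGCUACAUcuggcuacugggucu
miR-221-3p and miR-222-3p were the same over their first 8 bases, the seed included, and at 11 of 23 positions in all when set side by side without gaps. The 1679 mature mouse sequences searched held no 5′ arm of Mir126a or Mir222. Among them, no other had the seed of miR-126a-3p, and miR-1928 was the only other one with the seed of the pair. Mir1928, its hairpin gene, had 0 reads in both pups.

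The hairpins show from which places reads were counted. In the next lines the capitals mark the 3′ arm named above.
Mir126a hairpin: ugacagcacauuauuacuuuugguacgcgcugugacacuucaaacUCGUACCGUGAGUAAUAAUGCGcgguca
Mir222 hairpin: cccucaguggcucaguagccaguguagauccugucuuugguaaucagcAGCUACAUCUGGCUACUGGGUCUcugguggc
Mir221 hairpin: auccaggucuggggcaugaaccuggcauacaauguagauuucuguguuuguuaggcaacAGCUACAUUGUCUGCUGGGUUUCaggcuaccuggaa
Each count in the tables is per hairpin gene, so reads of both arms are pooled and the arms cannot be compared. The longest stretch that Mir221 shared with any of 1004 other hairpins, on either strand, was 13 nt, and for Mir222 it was 12 nt. The hairpins of Mir221 and Mir222 shared at most 9 nt with each other, despite the common seed. Mir126a shared 58 nt with Mir126b, which lies at the same place on the opposite strand, and at most 12 nt with any other hairpin. The exact sequence of miR-126a-3p occurred in transcripts of Egfl7 and Mir126a only, among 141767 annotated transcripts, and those of miR-221-3p and miR-222-3p only in their own hairpins. This search covered transcripts and not the genome.

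Mir126a (ENSMUSG00000065540.1) occupies bases 26591357 to 26591429 of chromosome 2, plus strand (GRCm38, the assembly that mm10 names). Egfl7 (ENSMUSG00000026921.18) spans 26580014 to 26593120 on the same strand. The hairpin is intronic in 8 of the 9 Egfl7 transcripts that span it, and exonic in Egfl7-206, a retained-intron transcript whose exon runs from 26590899 to 26591563. It also lies in an intron of Gm20532, a transcript that reads on past Egfl7. Mir221 (ENSMUSG00000065422.1) and Mir222 (ENSMUSG00000065471.1) lie on the minus strand of chromosome X, from 19146294 to 19146388 and from 19146893 to 19146971. Mir222 is transcribed first, and 504 nt separate the hairpins. No annotated host gene covers the pair, and the nearest other gene, the noncoding Gm14636, begins 10009 nt away.

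**Figure D1:**
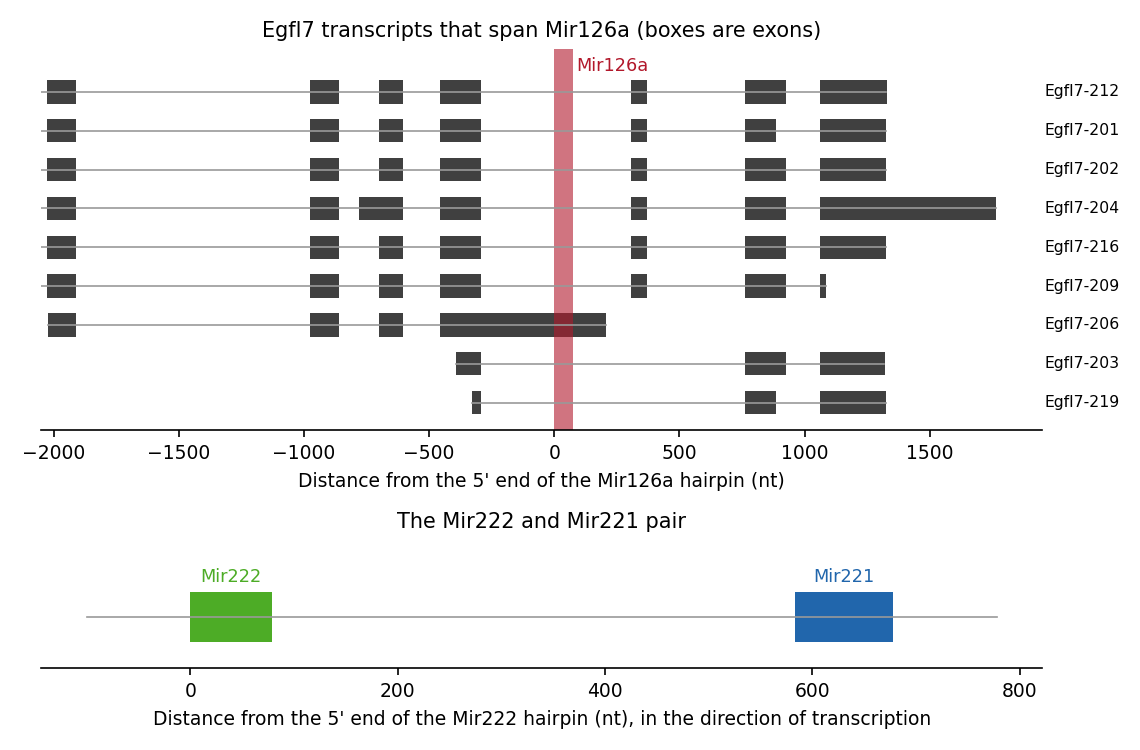
The upper map shows the 9 annotated Egfl7 transcripts that span Mir126a, with exons as boxes, introns as lines and the horizontal axis as distance in nt from the 5′ end of the hairpin. The lower map shows Mir222 and Mir221 in the direction of transcription, 504 nt apart. The hairpin of Mir126a falls in the intron of 8 transcripts and inside an exon of Egfl7-206.

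Sequencing gave 18798326 reads for pup 3 and 22470992 for pup 1, and 7678662 (40.8%) and 9037087 (40.2%) of them counted toward a microRNA gene. Reads that mapped to several places, 43.5% in pup 3 and 43.0% in pup 1, were in no gene's count. Levels are given as counts per 1000000 assigned reads (CPM). Intervals are exact 95% Clopper-Pearson intervals, which cover counting error only, and PCR copies of a molecule cannot be told apart in these counts. How many reads a molecule of each sequence yields was not measured, so levels of different hairpins compare reads and not molecules.

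Among the reads counted toward a gene, Mir126a was one of the most abundant hairpins, far above Mir221 and Mir222. Hairpins with copies elsewhere are under-counted in these tables, so its rank holds for the counted reads only. It had 283076 reads in pup 3 and 365921 in pup 1, or 36865 CPM (interval 36732 to 36999) and 40491 CPM (40363 to 40620). It ranked 4 of 1973 genes in both pups. Its mean was 38678 ± 2564 CPM (SD, n = 2), a coefficient of variation of 6.63%. The gene next above it was Mirlet7i, a let-7 hairpin, with 62183 CPM in pup 3 and 44154 CPM in pup 1, above both values of Mir126a. Next below was Mir487b of the imprinted region on chromosome 12, with 22042 and 37790 CPM. Mir487b was lower than Mir126a within each pup, but its value in pup 1 was above that of Mir126a in pup 3, so the order of this pair is not separated beyond the spread between pups. Divided by hairpin length, Mir126a stood at 505 CPM per nucleotide in pup 3 and 555 in pup 1 and ranked 4 and 3.

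Mir221 and Mir222 stood far lower than Mir126a but above most detected genes. Mir221 had 3514 reads in pup 3 and 3511 in pup 1, which are 458 CPM (443 to 473) and 389 CPM (376 to 402). Mir222 had 2999 and 3055 reads, which are 391 CPM (377 to 405) in pup 3 and 338 CPM (326 to 350) in pup 1. Both genes were higher in pup 3 on this scale, although their read numbers were nearly equal between pups, since the library of pup 3 was the smaller one. Mir221 averaged 423 ± 48.9 CPM and Mir222 364 ± 37.1 CPM (SD, n = 2 each). Their ranks were 137 and 143 in pup 3, and 145 and 160 in pup 1, above 68.4% and 67.0% of the 433 detected genes in pup 3 and above 66.5% and 63.0% in pup 1.

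**Figure D2:**
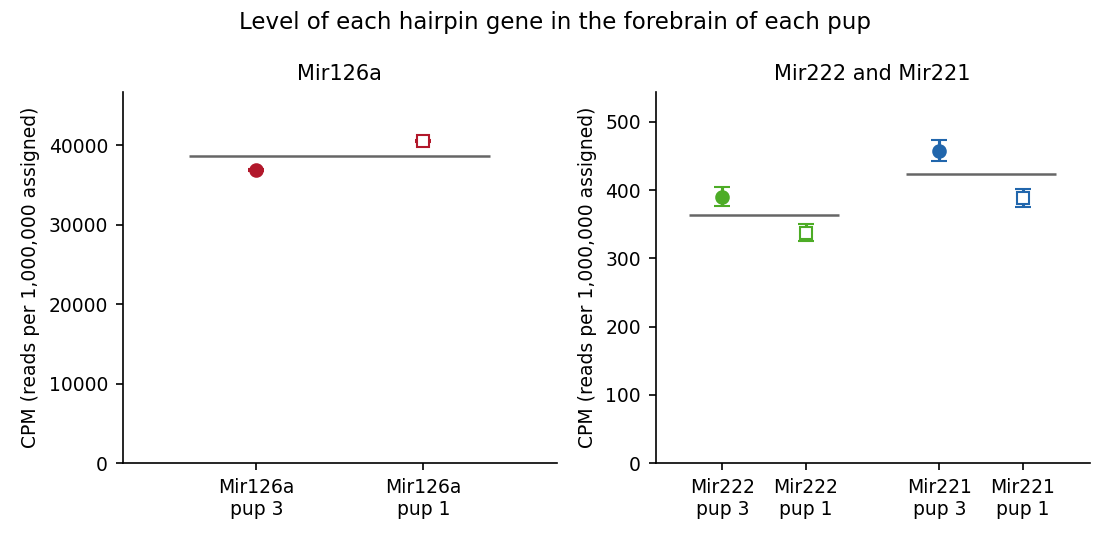
CPM of Mir126a (left) and of Mir222 and Mir221 (right) in pup 3 (filled circles) and pup 1 (open squares), with exact 95% intervals of counting error as bars and the mean of the pups as a grey line. The axes start at 0 and differ between panels. Mir126a stood at 36865 and 40491 CPM, while the pair stayed between 338 and 458 CPM, with pup 3 above pup 1 for both genes of the pair.

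Several genes stood beside Mir221 and Mir222 with no separation beyond the spread between pups. Next above Mir221 was Mir7-2, of a neuronal microRNA family, with 343 and 542 CPM in pup 3 and pup 1. Next below was Mir3099, with 218 and 606 CPM. Mir222 stood between Mir29c, of a family that rises as the brain matures, with 341 and 390 CPM, and Mir325, with 280 and 414 CPM. The ranges of all 4 of these neighbours overlapped those of the gene they stood beside.

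Within the cluster, Mir222 was the lower of the pair by reads in both pups, and the ratio was nearly the same in each. Pup 3 had 0.853 reads of Mir222 per read of Mir221 (0.813 to 0.896), and pup 1 had 0.870 (0.829 to 0.914). Mir222 made up 46.0% of the pair's reads in pup 3 (44.8% to 47.3%) and 46.5% in pup 1 (45.3% to 47.7%). The departure from equal numbers was larger than counting error in each library by two-sided exact binomial tests (p = 1.86e-10 in pup 3 and p = 1.94e-08 in pup 1, and 2.24e-10 and 1.94e-08 with Benjamini-Hochberg adjustment over 6 such ratios). These tests compare reads and not molecules of each microRNA. The difference between the mean levels, 58.8 CPM, was close to the SD of 48.9 CPM of Mir221 between pups. Mir222 in pup 3 slightly exceeded Mir221 in pup 1. The order also depends on the scale. Per nucleotide of hairpin, Mir222 stood at 4.94 and 4.28 CPM in pup 3 and pup 1, above Mir221 at 4.82 and 4.09 CPM, because its hairpin has 79 nt against 95 nt. The mature 3′ arms have the same length of 23 nt, so no such change follows from them.

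The ratio of Mir222 to Mir221 did not pass a test of a difference between pups, whereas the ratios of Mir126a to both did. The odds ratio of Mir222 against Mir221, pup 3 over pup 1, was 0.981 (95% Wald interval 0.916 to 1.05) with a two-sided Fisher's exact p of 0.587, unchanged by adjustment over the 3 pairs of genes. Mir126a had 80.6 reads per read of Mir221 in pup 3 (77.9 to 83.3) and 104 in pup 1 (101 to 108). Against Mir222 the numbers were 94.4 (91.1 to 97.9) in pup 3 and 120 (116 to 124) in pup 1. The odds ratios were 0.773 (0.737 to 0.810) and 0.788 (0.749 to 0.829), with Fisher's exact p of 8.59e-27 and 3.57e-20 (2.58e-26 and 5.35e-20 adjusted over the 3 pairs). These ratios are taken within a library and need no scaling between libraries. The tests compare 2 libraries with counting error alone, and each pup is a single library, so they say nothing of a condition.

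The small change of the Mir222 to Mir221 ratio was set beside that of other neighbouring hairpins. Each hairpin with a mean of 100 CPM or more was paired with the next such hairpin on its strand. The 64 pairs at most 10000 nt apart were kept, and hairpins of lower level can lie within a pair. On the log2 scale the ratio of the downstream to the upstream count was 0.23 in pup 3 and 0.20 in pup 1 for Mir221 over Mir222, a difference of 0.028. The absolute difference over all 64 pairs ran between 0.0051 and 1.72, with a median of 0.52, and 2 pairs had a smaller one. Of these, the mural cell pair Mir143 and Mir145a, named here after its value was seen, differed by 0.0099. Pairs share hairpins where clusters are longer, so they are not independent and no test was made. Some pairs hold hairpins with a mature arm in common with another hairpin, whose counts are uncertain. Examples named after their values were seen are Mir15b and Mir16-2 at 1.52, and Mir15a and Mir16-1 at 0.24. In another pair, Gm25750 and Mir299b at 1.04, nearly all reads lay on the strand opposite to the genes. The range and median include such pairs. The difference of 0.028 was within counting error (odds ratio interval 0.916 to 1.05), so the rank of Mir222 and Mir221 is not settled.

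**Figure D3:**
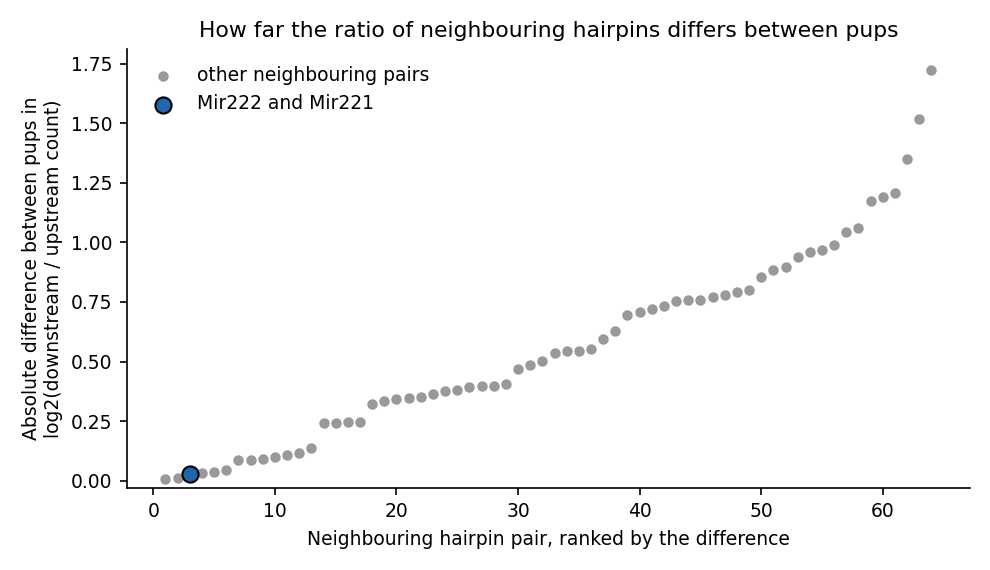
Absolute difference between pup 3 and pup 1 in the log2 ratio of downstream to upstream count (vertical axis) for 64 pairs of neighbouring hairpins, ranked along the horizontal axis. The Mir222 and Mir221 pair (blue) lies at rank 3 with 0.028, a difference within counting error, near the low end of a range that reaches 1.72.

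Between pups, all 3 genes were called higher in pup 3 with TMM scaling, by little for Mir126a and by more for the pair. The log2 ratio of pup 3 over pup 1 was 0.065 for Mir126a (0.058 to 0.072), a fold of 1.05. It was 0.44 for Mir221 (0.37 to 0.50), a fold of 1.35, and 0.41 for Mir222 (0.34 to 0.48), a fold of 1.33. The exact binomial test with Benjamini-Hochberg adjustment over all 460 genes tested gave adjusted p = 5.62e-71 for Mir126a, 4.63e-36 for Mir221 and 1.47e-27 for Mir222. In this comparison 63.0% of the tested genes were called in either direction, so that a call is common in these libraries. Of all tested genes, 30.2% were called higher and 32.8% lower in pup 3. For Mir126a the direction rests on the scaling. Under total counts its log2 ratio was -0.14 (-0.14 to -0.13), and it was called lower in pup 3, while Mir221 and Mir222 were still called higher at 0.24 and 0.21. With that scaling 66.1% of the tested genes were called, 21.3% as higher and 44.8% as lower. Total counts moved the median log2 ratio of all tested genes by -0.20, to -0.22 where TMM gave -0.019. Relative to the median of all tested genes, Mir126a was higher by 0.084, Mir221 by 0.46 and Mir222 by 0.43. These differences do not depend on the scaling by construction, since a scaling factor shifts every gene alike.

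Set beside genes of like level, the spread of Mir126a between pups was small and that of the pair was near the middle. Among the 8 genes with a mean within 2-fold of Mir126a, 1 had a smaller absolute log2 ratio, and their median was 0.51. Among 72 genes within 2-fold of Mir221, 39 had a smaller absolute log2 ratio, with a median of 0.39, and among 69 genes near Mir222, 37 did, with a median of 0.37. Under total counts these were 1 of 8 for Mir126a, 19 of 72 for Mir221 and 17 of 69 for Mir222. The biological coefficient of variation between the pups, estimated with edgeR over 301 genes, was 0.304.

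**Figure D4:**
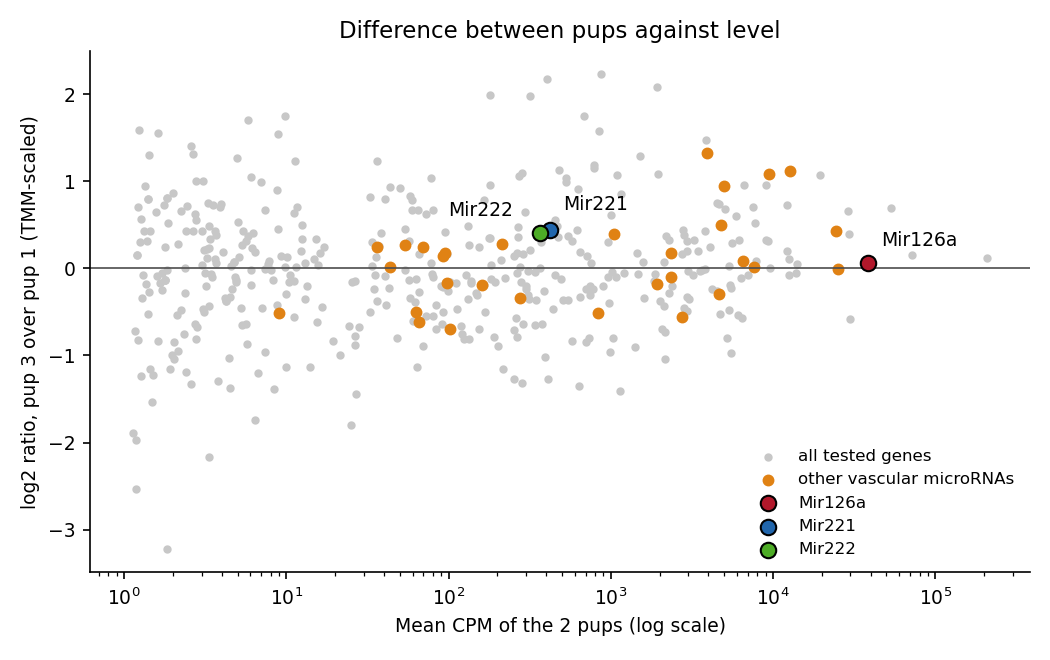
Log2 ratio of pup 3 over pup 1 with TMM scaling (vertical axis) against the mean CPM of the pups on a log axis, for 460 tested genes in grey, 30 other vascular microRNAs in orange and the 3 genes in colour. Mir221 at 0.44 and Mir222 at 0.41 lie side by side inside the grey cloud, and Mir126a at 0.065 lies near 0 at the right.

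The genes whose level and ratio over the 2 pups were nearest to each gene were sought by distance in mean log2 CPM and log2 ratio. Nearest to Mir221 were Mir672 (distance 0.068), Mir25 (0.15) and Mir351 (0.15). Nearest to Mir222 were Mir374b (0.11), Mir672 (0.16) and Mir221 (0.22). Mir126a had no neighbour as close, with Mir335 at 0.52, Mir100 at 0.63 and Mir137 at 0.73. With 2 samples, such a distance describes these libraries only.

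Other microRNAs with a described role in vessels moved in both directions between the pups. Of 32 names on this list, chosen with earlier results known, 30 matched a gene, and all 30 were detected. With TMM scaling 13 were called higher and 11 lower in pup 3, and 6 did not pass. That is 80% called, beside 63.0% of all tested genes (30.2% higher and 32.8% lower). Their median log2 ratio was 0.049, beside -0.019 over all genes tested. Scaling by total counts instead gave 7 higher, 15 lower and 8 that did not pass. This was 73.3% called, beside 66.1% of all tested genes (21.3% higher and 44.8% lower). The median was then -0.15, beside -0.22 for all. The most abundant were Mir100, of the miR-99 family, with 23342 CPM in pup 3 and 26911 in pup 1, and Mir130a, which in human endothelial cells represses antiangiogenic homeobox genes, with 26542 and 22578 CPM. None of the 30 reached Mir126a in the same pup.

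The highest ratios on the list were those of Mir16-1, Mir17, Mir15a and Mir20a. Mir17, of a cluster that supports proliferation, had 16718 CPM in pup 3 and 8839 in pup 1, a log2 ratio of 1.12. Mir15a, a cell cycle regulator, had 12220 and 6593 CPM, and its neighbour Mir16-1 had 5382 and 2458 CPM with a log2 ratio of 1.33. Mir20a, of the same cluster as Mir17, had 6257 and 3739 CPM with a log2 ratio of 0.94. Other hairpins of that cluster on the list stood lower, with log2 ratios of 0.39 for Mir92-1 and 0.18 for Mir18. Mir19a at 0.25 was not called (exact binomial test, adjusted p = 0.0616). Mir19b-1 of that cluster, not on the list and named after its value was seen, had 10.8 and 6.64 CPM with a log2 ratio of 0.90. Mir322, of the seed family of Mir15a, had 7121 and 8084 CPM with a log2 ratio of 0.017 that was not called (exact binomial test, adjusted p = 0.0561). Mir16-1 has 1 mature arm in common with Mir16-2 in RefSeq, so reads of that arm cannot be placed and its count is uncertain. Any reads of Mir92-1 that fit Mir92-2 equally well, or of Mir19b-1 that fit Mir19b-2, are likewise in no gene's count. The lowest ratios belonged to Mir27a, of a cluster linked to vessel sprouting, with 71.9 and 133 CPM and a log2 ratio of -0.69, and to Mir10a with 47.5 and 83.9 CPM and -0.62. Mir221 and Mir222 lie on the X chromosome, where 20 of 48 tested hairpins were called higher and 16 lower in pup 3, with a median log2 ratio of 0.16, beside 139 higher and 151 lower of 460 and a median of -0.019 over all tested genes. The numbers turned to 16 higher and 20 lower with total counts, at a median of -0.036, beside 98 higher and 206 lower and a median of -0.22 over all.

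The forebrain, a mixed tissue, also showed microRNAs of mural, blood and neural cells, read here beside the 30.2% of all tested genes called higher and the 32.8% called lower in pup 3 (21.3% and 44.8% under total counts). Reads of whole forebrain do not show in which cells a hairpin was transcribed, and fewer cells of a type and less RNA per cell cannot be told apart. The 6 mural and mesenchymal hairpins summed to 5343 CPM in pup 3 and 5972 in pup 1, with 2 called higher and 3 not called of 5 tested (1 higher, 2 lower and 2 not called under total counts). Mir143, of smooth muscle cells and pericytes, led them with 5002 and 5632 CPM and Mir145a followed with 173 and 194 CPM, with TMM log2 ratios of 0.029 and 0.039, of which the first was called. Mir199b, named after its value was seen, had the highest ratio of the list, with 72.0 CPM in pup 3 and 47.8 in pup 1 and a log2 ratio of 0.79. Any reads that fit Mir199a-1 or Mir199a-2 equally well are not in its count. The 7 blood cell hairpins summed to 1137 CPM in pup 3 and 867 in pup 1, with 5 called higher, 1 lower and 1 not called (3, 1 and 3 under total counts). Among them the erythroid Mir451a had 350 and 192 CPM, the myeloid Mir223 had 144 and 118 CPM, and the lymphoid Mir150, which is also on the vascular list, had 219 and 208 CPM. Mir142b had 340 and 249 CPM, all from reads on the strand opposite to it. Mir144, the erythroid partner of Mir451a, named after its value was seen, went the other way with 19.8 CPM in pup 3 and 36.3 in pup 1, and a log2 ratio of -0.67 that was called. Mir486 had 9.12 and 11.7 CPM and was not called. None of the blood hairpins was at 0. Their part in the levels of Mir126a, Mir221 and Mir222 was not tested.

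The neural hairpins summed to 46120 CPM in pup 3 and 33535 in pup 1, with 7 of 10 called higher and 3 not called (7 higher, 1 lower and 2 not called under total counts). Their median log2 ratio was 0.63, or 0.43 under total counts, beside -0.019 and -0.22 over all tested genes. Mir137, a brain microRNA of neuronal maturation, had 33595 and 24345 CPM, and Mir128-1, of neurons, had 6733 and 5104 CPM. Mir128-2 had 3010 and 2539 CPM, and Mir138-1, which acts in rat dendrites, had 1406 and 767 CPM. Mir128-1 and Mir128-2 have the same mature 3′ arm, and Mir138-1 and Mir138-2 the same 5′ arm, so these counts are uncertain too. Mir9-2 and the Mir124a hairpins, which have near-identical copies, had at most 14.7 CPM in either pup. Mir9-3 of the same multi-copy family as Mir9-2, named after its value was seen, had 684 CPM in pup 3 and 382 in pup 1, a log2 ratio of 1.04. Any reads that fit Mir9-2 equally well are not in its count. Hairpins of the Hox clusters, which mark tissue behind the forebrain, summed to 147 and 192 CPM, with Mir196a-1 at 0 in both pups. Most of that came from Mir10b, with 94.3 and 96.2 CPM, and Mir10a, with 47.5 and 83.9 CPM. Both of them are also on the vascular list. The parts of the neural and Hox hairpins in the ratios between pups were likewise not tested.

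**Figure D5:**
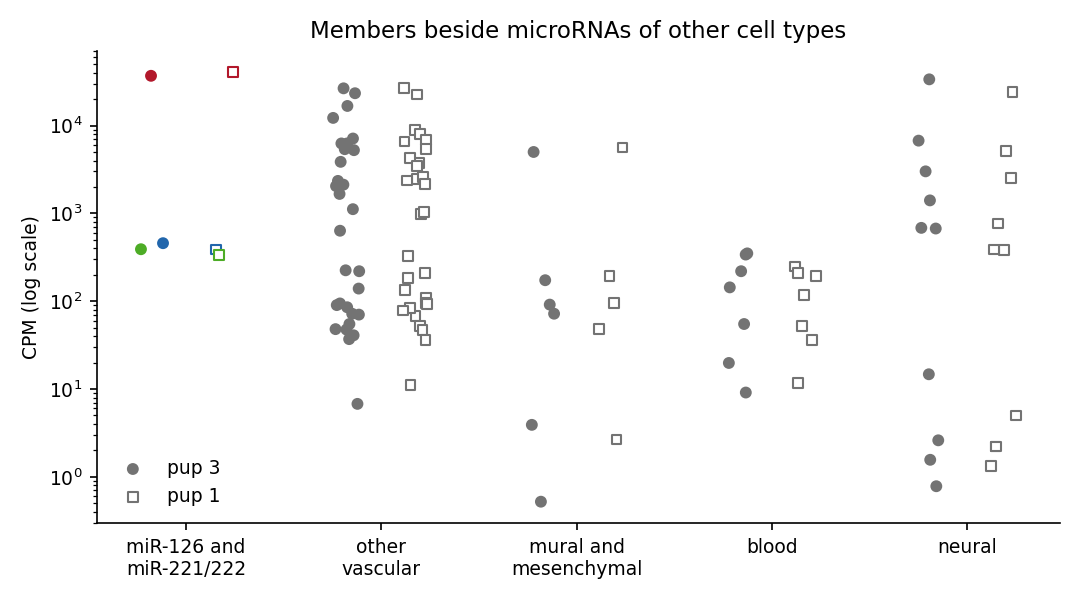
CPM on a log axis for Mir126a (red), Mir221 (blue) and Mir222 (green) and for the other vascular, mural and mesenchymal, blood and neural hairpins (grey), with pup 3 as filled circles left of pup 1 as open squares. Mir199a-1 of the mural list, at 0 in pup 1, is not drawn there. Mir126a lies above every hairpin of the other lists in the same pup, with Mir137 nearest in pup 3 and Mir100 in pup 1.

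Reads on the strand opposite to each gene were rare. The table column read as holding them had 6 of 283076 reads of Mir126a in pup 3, a share of 0.00212% (0.000778% to 0.00461%), and 7 of 365921 in pup 1, a share of 0.00191% (0.000769% to 0.00394%). The annotation places Mir126b there, at 26591363 to 26591420 on the minus strand, and its 58 nt are the reverse complement of part of the Mir126a hairpin. Mir221 and Mir222 had 0 such reads in both pups. Taking 3 reads as the most that a count of 0 allows, the share was at most 0.0854% for Mir221 in each pup. For Mir222 it was at most 0.100% in pup 3 and 0.0982% in pup 1. The exact intervals reached higher, to 0.105% for Mir221 in each pup, and to 0.123% in pup 3 and 0.121% in pup 1 for Mir222. Over all genes the share was 1.91% in pup 3 and 2.69% in pup 1, which includes entries such as Gm25927 with all their reads in that column.

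Sequences that pair with these seeds were looked up in messenger RNAs that the literature names as targets. Transcripts were not measured in this series, so these matches describe sequence alone. The longest annotated 3′ UTR of each gene was searched on its transcribed strand. The match to bases 2 to 8 of miR-221-3p and miR-222-3p, ATGTAGC, was found in 9.45% of 21037 such 3′ UTRs, with a median length of 2572 nt in those that held it and 960 nt over all. It occurred once in Cdkn1b and once in Cdkn1c, inhibitors of cyclin-dependent kinases, and at 2 places in Kit, the receptor of stem cell factor. The lines below give GENCODE M21 transcript sequence 5′ to 3′ with the match in capitals.
Cdkn1b (3′ UTR bases 2357 to 2363): tctaaaagcattggATGTAGCat
Cdkn1c (bases 95 to 101): gggacctttcgttcATGTAGCag
Kit (bases 447 to 453): atgatgggagatatATGTAGCaa
Kit (bases 1978 to 1984): ttgtaaatattgaaATGTAGCaa
The match to bases 2 to 8 of miR-126a-3p, CGGTACG, was rare, in 33 of the 3′ UTRs or 0.157%, and was in none of Spred1, Pik3r2 and Vcam1. A second form, GGTACGA, which pairs with bases 2 to 7 and ends in A, was added after this result was seen. It was in 0.732% of the 3′ UTRs and occurred once in Spred1, an inhibitor of growth factor signalling that miR-126 represses in mouse endothelial cells, and in neither of the other two. It overlaps the first form by 6 letters.
Spred1 (3′ UTR bases 511 to 517): ttaactaaatgtaaGGTACGAac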

How the data were processed

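The authors deposited whole-number counts of reads per microRNA gene for each library, against mm10 and annotation release M4 per the deposited notes. Which aligner and counter made them is not given in the sources used here. A table has 3 count columns without a heading; the first, which equals the sum of the others in every gene, was used, and 4 tallies that name no gene were left out. Names and positions came from GENCODE M21 (GRCm38), which matched 1894 of 1973 identifiers, and microRNA sequences from RefSeq.

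Libraries were scaled with TMM of edgeR 4.0.16 (factors 0.933 for pup 3 and 1.07 for pup 1). Log2 ratios used counts with 0.5 added. Genes with a total of 20 or more were tested with a two-sided exact binomial test and Benjamini-Hochberg adjustment at 0.05, since 1 group gives edgeR no contrast. Hairpins were folded with RNAfold 2.7.2. Alternatives were scaling by DESeq2 1.42.0 or by total counts, the own-strand column, other count minimums and each pup alone. By rule the text names the 3 genes, their hosts and nearest genes, the 5 most abundant vascular hairpins with the 2 highest and 2 lowest ratios at 50 CPM or more, and up to 4 hairpins at 100 CPM or more of the mural, blood and neural lists; others were named after their values were seen. Members and lists were chosen with earlier results of these data known. R 4.3.3 was used, and Python 3.11.15 with scipy 1.17.1.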

Additional observations from a re-analysis of the deposited data

Results flagged for a closer look

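The column of opposite-strand reads, which enters the counts above only as part of their sum, held 6 reads at Mir126a in pup 3 and 7 reads in pup 1. These exceed the 3 reads taken above as the most that a count of 0 allows, which is no threshold for a signal. As shares of the reads of Mir126a they are 0.00212% and 0.00191%. The 1.91% and 2.69% over all genes are no background rate for them, since some entries had all their reads in that column. An example is Gm25927, with 36312 reads in pup 3 and 56072 in pup 1. Mir99a, the most abundant hairpin, had 0 there in both pups. Whether the reads at Mir126a come from a transcript of Mir126b, which the annotation places on that strand, was not tested.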

How the results depend on the processing

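Of 81 recomputed values, 68 kept their direction, call or range, 11 moved and 2 reversed. This tally is no measure of stability, since some settings could not change a value. Other count minimums leave the log2 ratio of a gene as it is. With 0 opposite-strand reads of Mir221 and Mir222, the own-strand column left the mean share of Mir222 at 46.3%. Under total counts the log2 ratio of Mir126a was -0.14 and the median of the vascular list -0.15, both reversed, and 7 vascular hairpins were higher. Total counts also put 26.4% of genes of like level below Mir221 in absolute ratio, and 24.6% below Mir222. Per 1000000 reads of the whole library, the levels were 15671 for Mir126a, 172 for Mir221 and 148 for Mir222. Among genes with 1 or more reads in both pups, the mean percentiles were 99.4, 78.8 and 77.2. Per hairpin nucleotide they were 99.2 for Mir126a and 65.7 for Mir221 among the detected genes. With either pup alone, levels ran between 36865 and 40491 CPM for Mir126a, 389 and 458 for Mir221, and 338 and 391 for Mir222. Settings added after the data were seen, a gap of 2000 nt or a mean of 10 CPM, left 1 of 46 and 4 of 96 pairs with a smaller difference than Mir222 and Mir221. No paired analysis was possible because the labels give 1 group. With 2 libraries, a level has 1 difference behind its SD, and p-values between pups cover counting error only.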

Other observations

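The hairpins differed in composition and predicted stability. GC content was 45.2% in Mir126a, 47.4% in Mir221 and 54.4% in Mir222. The minimum free energy by RNAfold was -31.2 kcal/mol for Mir126a, -42.8 for Mir221 and -40.7 for Mir222. Per nucleotide, Mir222 was more stable than 86.6% of 1005 RefSeq hairpins, Mir221 than 68.9% and Mir126a than 59.5%, the reverse of the order of their levels in CPM. With 3 hairpins this is a description only.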
